A study of Saccharomyces cerevisiae with 4 samples.

Results

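The small subunit processome is the large nucleolar particle in which the precursor of 18S ribosomal RNA folds, is modified and is first cut on its way to the 40S ribosomal subunit. It forms on nascent pre-rRNA when the UTP-A and UTP-B protein complexes bind the 5′ external spacer, the U3 snoRNP (a small nucleolar RNA with the box C/D core proteins) pairs with the precursor, and many further proteins, helicases and modifying enzymes join. In budding yeast the genes for these proteins belong to the ribosome biogenesis regulon, whose transcription follows growth conditions. The RNAs described here are the mRNAs of the processome proteins, not the pre-rRNA or U3 RNA of the particle itself.

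The genes number 52 of the 6692 reading frames in the count table. They were chosen by what their products are known to do and not by a measured value, though earlier results of these data were known then. They are UTP proteins, box C/D core proteins, the MPP10 complex, helicases, modifying enzymes and other 40S assembly factors. All 52 passed the filter on low counts. RNA came from nuclear mRNPs purified by successive affinity steps on Sub2 and on Hpr1 (the eluate, 2 libraries) and from total lysate (2 libraries). Sub2 is a helicase of mRNP assembly and Hpr1 a subunit of the THO complex. All 4 libraries came from BY4741, a haploid laboratory strain, grown in the rich medium YPD, with the allele sub2-FLAG-3C-ProtA::kanMX4 at the one locus and hpr1-TS::hphNT1 at the other, so that the lysates carry the tags too. No eluate of an untagged strain was analysed here. A fold change compares shares of 2 RNA pools, and it does not tell how many molecules of an mRNA were recovered.

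Total counts ranged from 22454265 to 29903666 in the eluates and from 11448755 to 14793216 in the lysates. The smallest count of any of the 52 genes was 147, for IMP3 in an eluate. Mitochondrial reading frames, which a nuclear fraction should lack, took at most 0.00717% of the eluate counts and at least 1.31% of the lysate counts. No library had a count for LEU2, MET17 or URA3, genes deleted in BY4741. HIS3, which is only partly deleted in this strain, kept 344 and 480 eluate counts and 1105 and 870 lysate counts. Between libraries of one fraction the 52 genes differed by a median of 0.0656 log2 units for the eluates and 0.115 for the lysates. The widest gap was 0.651, for SNU13 between the lysates.

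The 52 genes lie on 14 chromosomes, 28 on the plus and 24 on the minus strand, and none has an intron in its coding sequence. Their median coding length was 1680 bases, against 1197 bases for nuclear protein-coding genes. No other reading frame overlaps 48 of them. NOP58 shares 254 bases with YOR309C on its own strand, a frame with 1554 and 1811 eluate counts and 891 and 693 lysate counts. NOP56, RRP9 and SAS10 overlap a frame on the opposite strand. The counting options for strand and shared reads are unknown here, so the values of these 4 genes are uncertain to that extent.

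Most processome mRNAs were higher in the eluate, but a sizeable minority was lower, and both kinds occurred within the same complexes. Each gene was tested with edgeR's quasi-likelihood test across 6191 genes, at a Benjamini-Hochberg adjusted p under 0.05. By this rule 33 of the 52 genes (63.5%) were higher in the eluate, against 44.2% of all genes tested. Another 15 (28.8%) were lower, against 44.8% of all genes tested, and 4 did not pass (UTP15, UTP11, SOF1 and RRP5). The median log2 fold change was 0.67 for the 52 genes and -0.01 for all genes tested. Both eluates lay above both lysates for 34 of the 52 genes (46.9% of all genes tested) and below both for 17 (47.5%), and SOF1 alone overlapped.

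Since most genes of the table differ between the fractions, a stricter rule asked for a change of more than 2-fold (edgeR's glmTreat). It called 15 of the 52 genes higher (28.8%), close to the 27.9% of all genes tested, and 8 lower (15.4%), against 28.9%. The 52 genes also spread less than the rest: the SD of their log2 fold changes was 1.24, against 2.11 over nuclear protein-coding genes. No test was run of the group against other genes.

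Together the 52 genes took 1.998% and 1.93% of the counts in eluates 1 and 2, and 1.24% and 1.19% in lysates 1 and 2. Both eluates lay above both lysates, with p = 0.33 in an exact two-sided permutation test over libraries, the lowest value that 2 against 2 can give. With nuclear genes outside the ribosomal protein families as the denominator, the shares were 2.02% and 1.95% in the eluates and 1.51% and 1.44% in lysates 1 and 2.

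**Figure D1:**
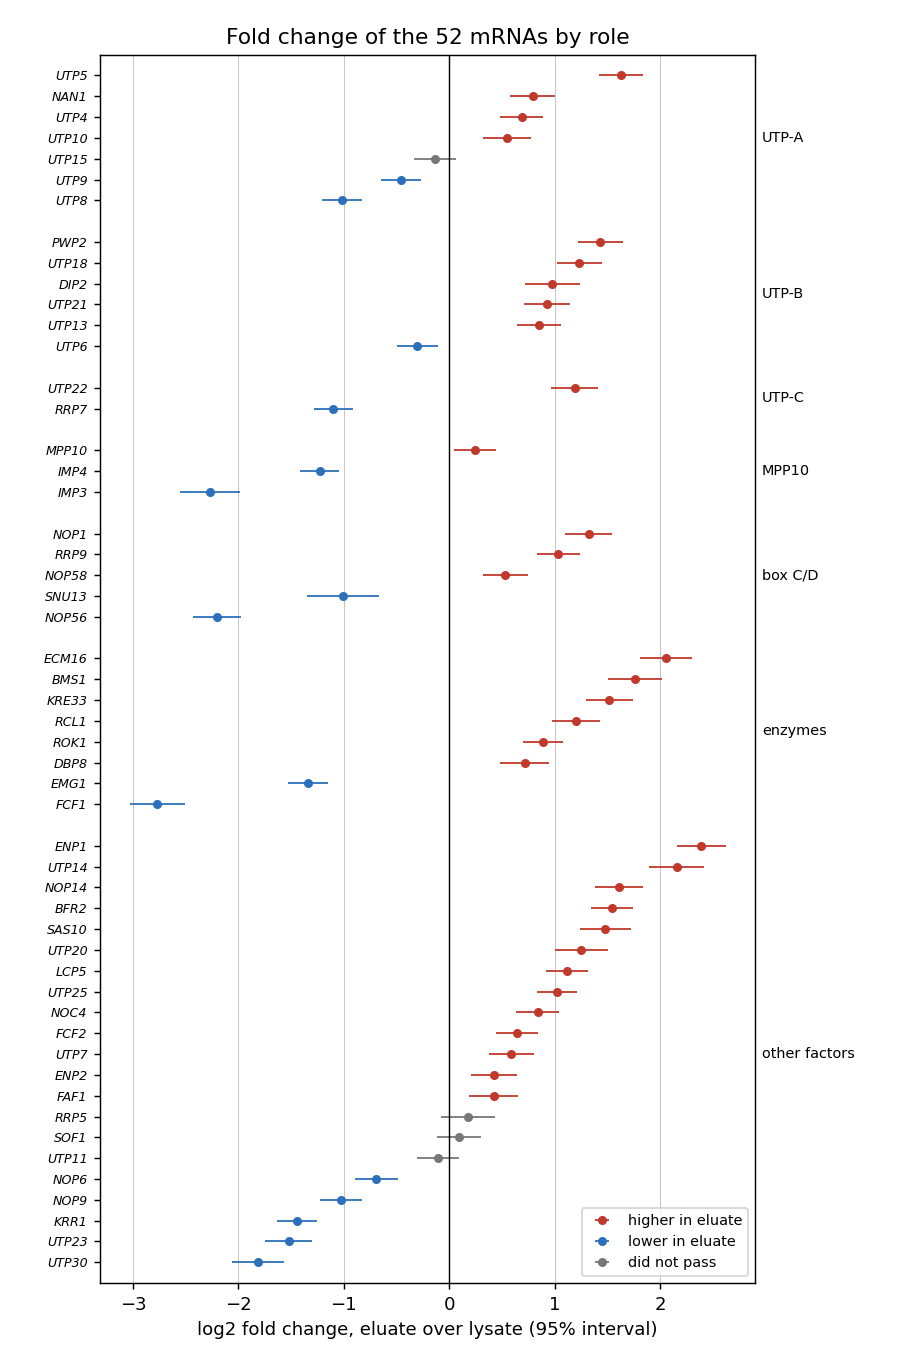
Log2 fold change of eluate over lysate for each of the 52 genes (points) with a 95% interval computed from its standard error (bars), grouped by role. Values run from -2.77 for FCF1 to 2.39 for ENP1, and every role group holds genes on both sides of 0.

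UTP-A is the first complex to bind nascent pre-rRNA, and its genes were split. UTP4, UTP5, UTP10 and NAN1 were higher in the eluate, UTP8 and UTP9 were lower, and UTP15 did not pass. UTP5 (YDR398W, chromosome IV from 1267471 to 1269402 in sacCer3) had 467 and 468 CPM (normalized counts in each 10⁶) in the eluates and 157 and 146 CPM in the lysates. The log2 fold change was 1.63 with a standard error of 0.0989 (edgeR adjusted p = 3.85e-10). UTP8 (YGR128C, chromosome VII from 747950 to 750091), whose product also takes part in nuclear tRNA export, moved the other way. It had 110.0 and 106 CPM in the eluates and 216 and 222 CPM in the lysates, and its log2 fold change was -1.02 with a standard error of 0.0899 (edgeR adjusted p = 3.52e-08). For both genes the libraries of a fraction lay close together and the fractions far apart. UTP10 (YJL109C), a long HEAT-repeat protein encoded by 5310 bases, had 822 and 825 CPM in the eluates and 544 and 583 CPM in the lysates. Its log2 fold change of 0.55 was near those of the shorter genes UTP4 (0.69) and NAN1 (0.79). UTP9 fell by 0.46 on the log2 scale, and UTP15 stood at -0.14 (edgeR adjusted p = 0.176). Without lysate 2 UTP15 was called lower (-0.23, edgeR adjusted p = 0.0204), and without lysate 1 it stood at -0.04.

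UTP-B is built of WD40-repeat proteins and UTP6, and 5 of its 6 genes were higher. PWP2 (YCR057C, chromosome III from 220457 to 223228) had 710 and 724 CPM in the eluates and 265 and 266 CPM in the lysates, a log2 difference of 1.43 with a standard error of 0.101 (edgeR adjusted p = 2.33e-09). UTP18, whose product recruits the exosome helicase Mtr4, rose by 1.23 on the log2 scale, and DIP2, UTP21 and UTP13 by 0.98, 0.93 and 0.85. Of these, PWP2 and UTP18 passed the 2-fold rule. UTP6 (YDR449C), the shortest gene of the complex, had 76.2 and 83.3 CPM in the eluates and 102 and 95.1 CPM in the lysates. Its small change of -0.30 (edgeR adjusted p = 0.0061) was no longer called without eluate 1 (-0.21, edgeR adjusted p = 0.118).

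UTP-C, the module of UTP22 and RRP7 with casein kinase 2, had its genes on opposite sides. UTP22 (YGR090W, 3714 coding bases) had 827 and 766 CPM in the eluates and 349 and 350 CPM in the lysates, and its log2 fold change was 1.19 (standard error 0.104). RRP7 (YCL031C, 894 coding bases) had 73.7 and 74.2 CPM in the eluates and 158 and 159 CPM in the lysates, and its log2 fold change was -1.10 (standard error 0.0866). UTP22 passed the 2-fold rule and RRP7 did not (edgeR adjusted p = 0.0221 and 0.0775).

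The MPP10 complex helps U3 pair with the pre-rRNA, and the genes of its small subunits were lower in the eluate. IMP3 (YHR148W, chromosome VIII from 393534 to 394085) had 6.79 and 6.43 CPM in the eluates and 33.6 and 30.1 CPM in the lysates. Its log2 fold change was -2.27 with a standard error of 0.133 (edgeR adjusted p = 2.45e-10). IMP4 fell by 1.23 and also passed the 2-fold rule. MPP10 (YJR002W), the large subunit, had 248 and 256 CPM in the eluates and 219 and 206 CPM in the lysates. Its log2 fold change of 0.25 (edgeR adjusted p = 0.023) was not called without eluate 2 (0.21, edgeR adjusted p = 0.121) or without lysate 2 (0.20, edgeR adjusted p = 0.0725).

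Box C/D proteins form the core of the snoRNPs that guide rRNA methylation and of the U3 snoRNP. NOP1 (YDL014W, chromosome IV from 427364 to 428347), the methyltransferase fibrillarin, had 828 and 863 CPM in the eluates and 345 and 331 CPM in the lysates. It rose by 1.32 on the log2 scale, with a standard error of 0.104 (edgeR adjusted p = 8.65e-09), and passed the 2-fold rule. NOP56 (YLR197W, chromosome XII from 546097 to 547611), which pairs with NOP58 as the scaffold of the same particle, had 112 and 126 CPM in the eluates and 554 and 537 CPM in the lysates. It fell by 2.20, with a standard error of 0.105 (edgeR adjusted p = 2.19e-11). The opposite-strand frame over NOP56, YLR198C, had 80 and 96 eluate counts and 309 and 237 lysate counts. NOP58 rose by 0.53. RRP9, which is specific to U3, rose by 1.04 on the log2 scale. SNU13 (YEL026W), a kink-turn binder that also serves the spliceosomal tri-snRNP, is the shortest of the 52 genes at 381 bases. It had 28.9 and 26.3 CPM in the eluates and 43.4 and 68.1 CPM in the lysates, with the lysates far from each other. Its log2 fold change was -1.01 (standard error 0.16, edgeR adjusted p = 2.73e-05). Without lysate 1 it was -1.31 and without lysate 2 it was -0.66, and the call held in both.

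Among the 8 enzymes, 6 were higher, against 44.2% of all genes tested, and 2 lower, against 44.8%. Set against the trend on coding length described below, 4 of the enzymes lay above it and 4 below. ECM16 (YMR128W, chromosome XIII from 523696 to 527499) encodes the helicase Dhr1, which releases U3 from the pre-rRNA. It had 1321 and 1428 CPM in the eluates and 346 and 314 CPM in the lysates. The change was 2.06 on the log2 scale, with a standard error of 0.116 (edgeR adjusted p = 1.51e-10). UTP14, the activator of Dhr1, rose by 2.16. BMS1 (YPL217C), a GTPase, had 1672 and 1723 CPM in the eluates and 532 and 467 CPM in the lysates, a rise of 1.76 on the log2 scale. Its partner RCL1 rose by 1.20, and KRE33, which acetylates 18S rRNA, by 1.52. The DEAD-box helicase genes ROK1 and DBP8 rose by 0.89 and 0.71 without passing the 2-fold rule. FCF1 (YDR339C, chromosome IV from 1149951 to 1150520), a PIN-domain protein needed for early pre-rRNA cuts, had the lowest fold change of the 52 genes. It had 9.38 and 10.9 CPM in the eluates and 73.9 and 64.6 CPM in the lysates, which is -2.77 on the log2 scale with a standard error of 0.121 (edgeR adjusted p = 8.18e-12). EMG1, a methyltransferase of 18S rRNA, fell by 1.34.

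Of the 21 other assembly factors 13 were higher (61.9%, against 44.2% of all genes tested), 5 lower (23.8%, against 44.8%) and 3 not called. ENP1 (YBR247C, chromosome II from 713004 to 714455) stays with the pre-40S particle into the cytoplasm, and it had the highest fold change of the 52 genes. It had 207 and 204 CPM in the eluates and 35.2 and 43.5 CPM in the lysates, which is 2.39 on the log2 scale with a standard error of 0.108 (edgeR adjusted p = 1.19e-11). After UTP14 came, on the log2 scale, NOP14 (1.61), BFR2 (1.54) and SAS10 (1.48), then UTP20 (2.38 times as high in the eluate), and then LCP5 (1.12) and UTP25 (1.02). NOC4, the partner of NOP14, rose by 0.84, FCF2 by 0.64, UTP7 by 0.59, and ENP2 and FAF1 by 0.42 each. UTP30 (YKR060W), related to ribosomal protein L1, had 11.6 and 12.6 CPM in the eluates and 41.9 and 43.6 CPM in the lysates, and fell by 1.82 (standard error 0.115). UTP23, KRR1, NOP9 and NOP6 fell by 1.52, 1.44, 1.03 and 0.69.

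The longest of the 52 genes, UTP20 (YBL004W, 7482 bases), had 2200.2 and 2143 CPM in the eluates and 933 and 888 CPM in the lysates. RRP5 (YMR229C, 5190 bases), which acts in the assembly of both subunits, had 1389 and 1525 CPM in the eluates and 1336 and 1242 CPM in the lysates. Its log2 fold change of 0.18 did not pass (edgeR adjusted p = 0.171), though it did without eluate 1 (0.28, edgeR adjusted p = 0.0348). SOF1 (0.10) and UTP11 (-0.11) did not pass either (edgeR adjusted p = 0.355 and 0.283). SOF1 was called higher without lysate 1 (0.21, edgeR adjusted p = 0.048) and stood at -0.01 without lysate 2. UTP11 ranged from -0.18 to -0.04 with 1 library left out and was not called in any of these fits.

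**Figure D2:**
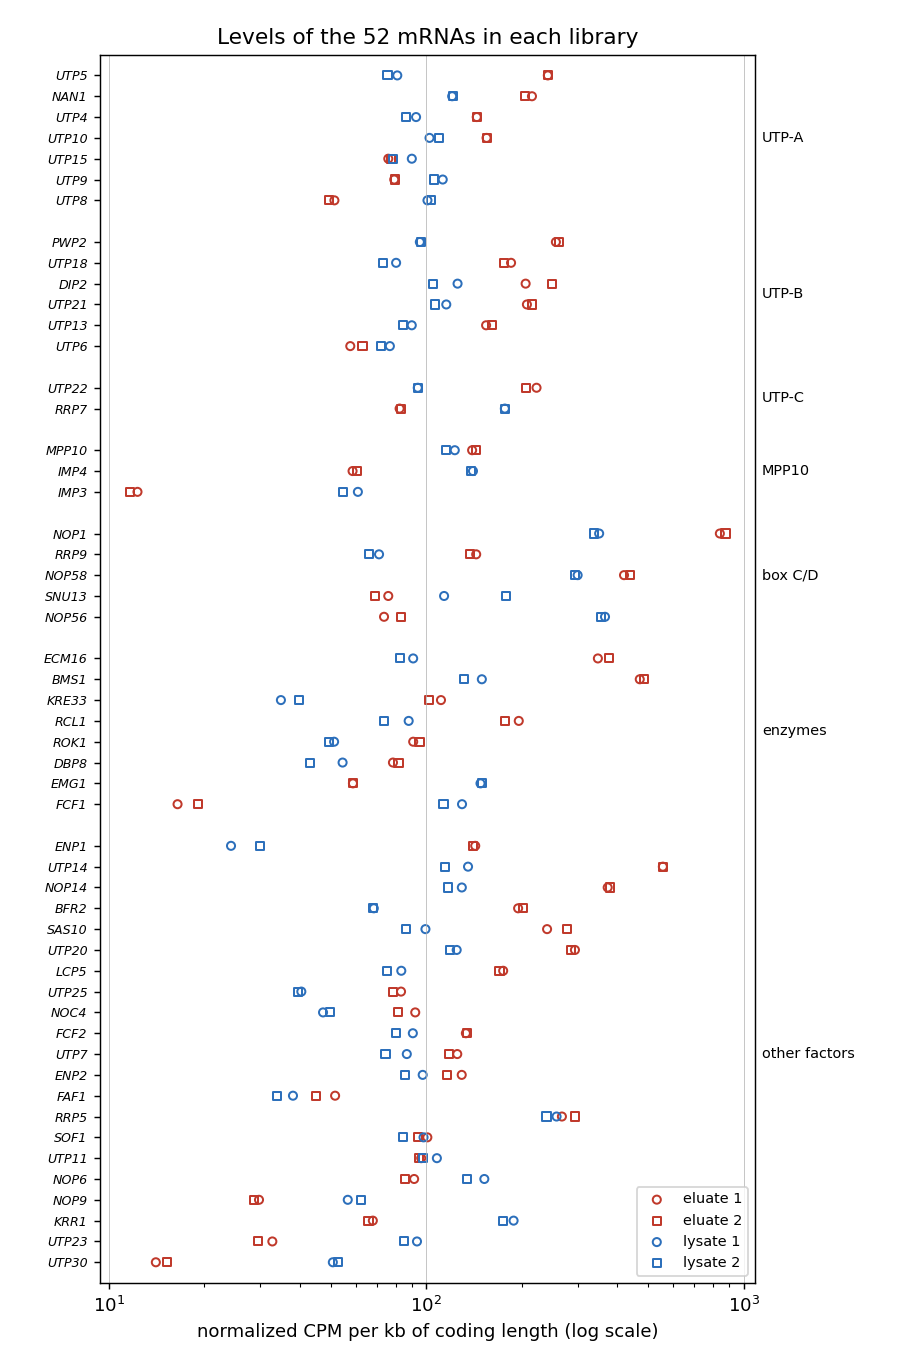
Normalized CPM per kb of coding length (log scale) of each of the 52 mRNAs in eluates 1 and 2 and lysates 1 and 2, grouped by role. The lysate values lie between 24.2 and 366 and the eluate values between 11.6 and 877.

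To compare levels between genes, CPM were divided by coding length. The median of the 52 mRNAs was 131 and 126 CPM per kb in the eluates and 96.4 and 86.2 CPM per kb in the lysates. The highest mRNA (NOP1) stood 68.4 and 75.3 times above the lowest (IMP3) in the eluates, while in the lysates the highest (NOP56) stood 15.1 and 11.8 times above the lowest (ENP1). ENP1, the lowest of the 52 in the lysates, had 143 and 140.4 CPM per kb in the eluates, above the median there.

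The SD of log2 CPM per kb over the 52 genes was 1.27 and 1.29 in the eluates and 0.782 and 0.770 in lysates 1 and 2. Over 5769 nuclear protein-coding genes the fractions stood the other way round, at 1.89 and 1.94 in the eluates and 2.23 and 2.21 in lysates 1 and 2. The 57 assembly factors of the 60S subunit gave 1.17 and 1.18 in the eluates and 0.876 and 0.820 in lysates 1 and 2. With 2 libraries per fraction each of these contrasts has p = 0.33 in the exact permutation test, and the gene groups were not tested against each other. These levels assume even coverage along a reading frame, which was not examined here. The study reported that coverage leaned to the 5′ end in the eluates, unlike in the lysates, though less strongly in individual profiles than in its heat map. How far this moved the levels per kb was not tested.

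The widening also appeared within single complexes. The 7 UTP-A mRNAs spanned 4.70 and 4.90 times per kb in the eluates, from UTP8 to UTP5, and 1.49 and 1.61 times in the lysates, where UTP5 was the lowest. The 6 UTP-B mRNAs spanned 4.45 and 4.15 times in the eluates and 1.63 and 1.48 times in lysates 1 and 2. For the MPP10 complex the span was 11.3 and 12.3 times in the eluates, against 2.30 and 2.54 times in lysates 1 and 2. The pairs that follow join the highest and lowest fold change of a role group. That choice fixes in advance that their ratio is larger in the eluates, so they only describe the group and are not evidence of widening. NOP1 over NOP56 was 11.4 and 10.6 in the eluates, but 0.958 and 0.951 in lysates 1 and 2, where both mRNAs lay between 337 and 366 CPM per kb. ECM16 over FCF1 was 21.1 and 19.7 in the eluates, against 0.701 and 0.729 in lysates 1 and 2. ENP1 over UTP30 was 10.2 and 9.20 in the eluates, against 0.478 and 0.567 in lysates 1 and 2.

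**Figure D3:**
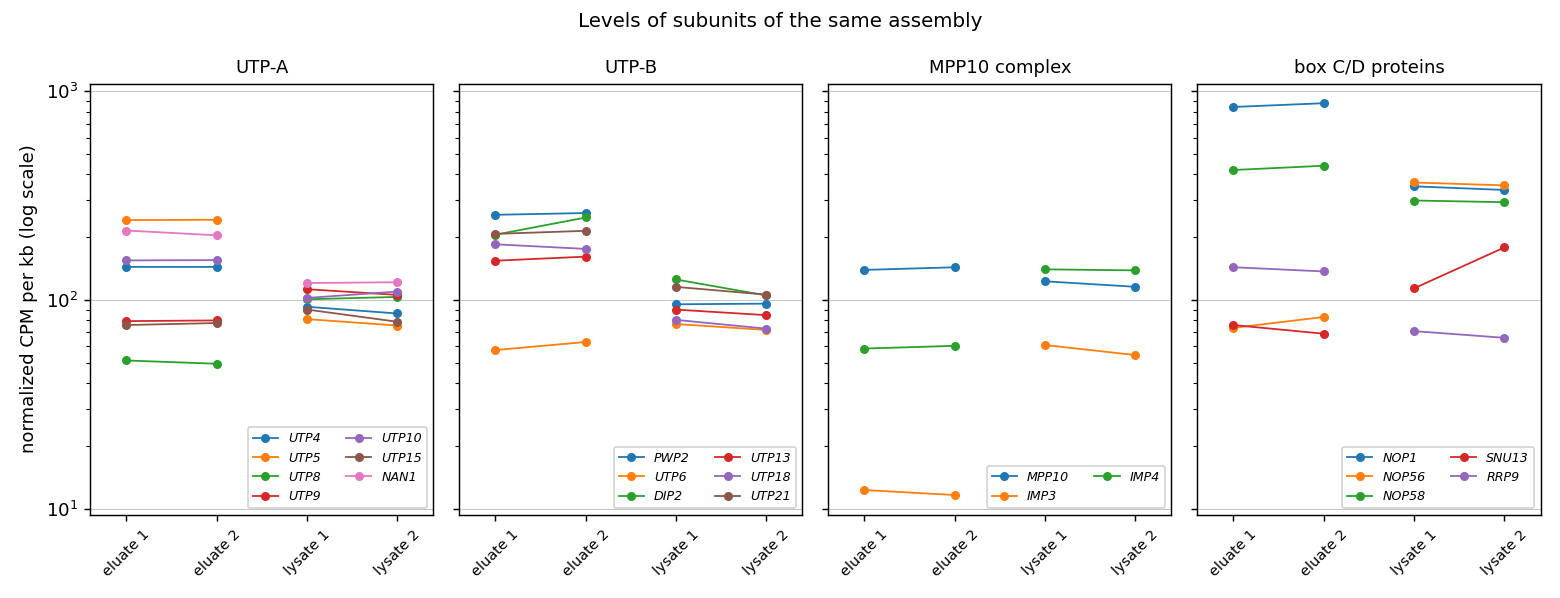
Normalized CPM per kb (log scale) of the mRNAs of UTP-A, UTP-B, the MPP10 complex and the box C/D proteins in eluates 1 and 2 and lysates 1 and 2. The UTP-A and UTP-B mRNAs span 4.15 to 4.90 times in the eluates and 1.48 to 1.63 times in the lysates.

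Fold change went with coding length. Across the 52 genes, coding length and log2 fold change had a Spearman's rho of 0.58 (Pearson's r 0.60), and across 5774 nuclear protein-coding genes a rho of 0.55. Without the 3 longest and 3 shortest of the 52 genes rho was 0.57. For the 52 genes, level per kb went with length in the eluates (rho 0.62) and hardly in the lysates (rho 0.01). Across nuclear protein-coding genes rho was 0.47 in the eluates and -0.128 in the lysates. Across the 60S assembly factors it was 0.317 in the eluates and -0.462 in the lysates. All these are across genes measured in the same 4 libraries and are given as a description. Of the 13 genes of up to 1000 bases, 10 were lower, NOP1 and FCF2 were higher, and UTP11 did not pass. Of the 20 genes between 1000 and 2000 bases, 15 were higher and 3 lower (NOP56, UTP6 and UTP9). Of the 12 between 2000 and 3000 bases, 10 were higher and 2 lower (UTP8 and NOP9). Of the 7 genes over 3000 bases, 6 were higher and RRP5 did not pass. Nuclear protein-coding genes of the same classes, from short to long, were higher in 21.4%, 45.3%, 77.0% and 90.6% of cases and lower in 67.9%, 42.3%, 15.5% and 4.7%. The 10 lower genes of the shortest class (76.9%) were thus near the share of all genes of that length, while the 3 lower genes between 1000 and 2000 bases (15.0%) were fewer than the 42.3% of all such genes, with no test of either.

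Each log2 fold change was then set against a lowess trend on coding length over nuclear protein-coding genes. Of the 52 genes 24 lay above the trend and 28 below, with a median distance of -0.07. The SD of the distance was 1.06, against 1.77 for nuclear protein-coding genes. The distances differed by length class. Above the trend lay 5 of 13 genes of up to 1000 bases (median distance -0.31) and 14 of 20 between 1000 and 2000 bases (0.50). Among longer genes, 4 of 12 between 2000 and 3000 bases (-0.43) and 1 of 7 over 3000 bases (-0.67) did. Of the UTP-B genes 2 lay above the trend and 4 below, and of the enzymes 4 above and 4 below. More than 1 log2 unit above the trend were 6 of the 52 genes (11.5%, against 26.4% of nuclear protein-coding genes). They were ENP1 (2.27), NOP1 (1.94), FCF2 (1.92), RCL1 (1.61), LCP5 (1.58) and BFR2 (1.21). LCP5 and BFR2 act in one module with ENP2, which lay at -0.49. More than 1 unit below were 7 of the 52 genes (13.5%, against 26.6%). They were NOP56 (-2.41), RRP5 (-2.21), UTP8 (-1.95), UTP10 (-1.87), NOP9 (-1.82), UTP20 (-1.68) and FCF1 (-1.32), which include the 3 longest genes. BMS1, KRE33 and ECM16 lay at -0.02, -0.09 and 0.16. SNU13, although lower in the eluate, lay 0.90 above the trend at its length.

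**Figure D4:**
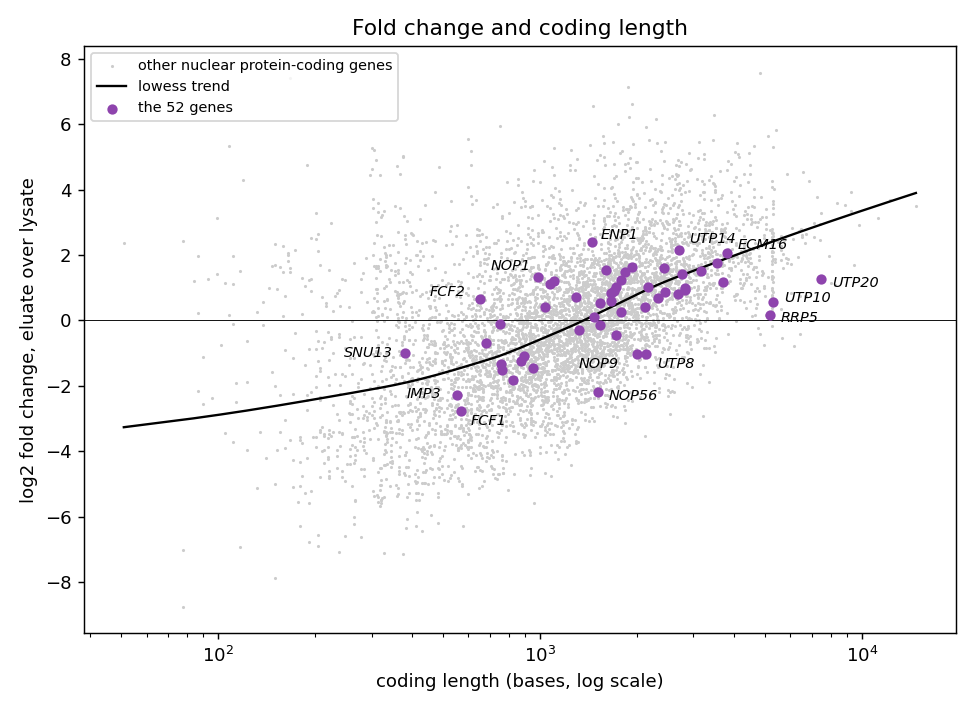
Log2 fold change of eluate over lysate against coding length (log scale) for the 52 genes and other nuclear protein-coding genes, with the lowess trend over nuclear protein-coding genes (line). ENP1 (1452 bases) lies 2.27 above the line and NOP56 (1515 bases) 2.41 below it.

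Other genes of the pathway, in lists chosen by function, gave the following counts by the same test. Of 20 further processome and 90S factors, 9 were higher and 7 lower, with a median log2 fold change of 0.07. The share higher, 9 of 20, was near the 44.2% of all genes tested, and the share lower was 35.0%, against 44.8%. The 7 included all 4 genes of casein kinase 2, the kinase of UTP-C, named here after their values were seen: CKA1 (-1.81), CKA2 (-1.31), CKB1 (-1.74) and CKB2 (-2.38). Of 11 late 40S maturation factors, 5 were higher (45.5%, again near the share of all genes) and 6 lower (54.5%). The list for RNA polymerase I, which makes the pre-rRNA, held 8 genes, with 3 higher and 3 lower (37.5% each). Among those higher was RRN3 (0.49), an initiation factor and not a subunit. Of the 57 assembly factors of the 60S subunit, 31 (54.4%) were higher and 19 (33.3%) lower, with a median of 0.34. The 56 genes of 40S ribosomal proteins were all lower, with a median of -4.53. All 4 listed regulators of the regulon were higher: the repressors DOT6 (4.35), TOD6 (3.08) and STB3 (2.63), and the activator SFP1 (2.53). Differences between the lists were not tested.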

How the data were processed

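For 2 eluates and 2 lysates, the authors deposited raw read counts for each reading frame. The submitters' processing notes list STAR 2.7.9a, Subread 2.0.3 with featureCounts, and the build sacCer3, and the counting options were not known here. The study's methods call the replicates biological. The authors' own DESeq2 comparison (mean signal, log2 fold changes, test statistics and p-values) was deposited too and was not used. Symbols were taken from RefSeq (R64), with 6008 of 6692 identifiers matched and all 52 genes among them.

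edgeR 4.0.16 (R 4.3.3) was run with filterByExpr, TMM scaling, glmQLFit and glmQLFTest, and with glmTreat at a log2 fold change of 1. Fraction was the only term, and p-values were adjusted over 6191 genes. The standard error was taken as the size of the log2 change divided by the root of F. The lowess trend had a span of 0.667. Coding length excludes untranslated regions. Permutation tests used scipy 1.17.1. Alternatives were DESeq2 1.42.0, limma-voom (limma 3.58.1), other scalings and filters, a replicate block and each library left out. The fits were tested on simulated data. Library values are given for the highest and lowest fold change in each of 7 role groups, and for the 3 most abundant, 3 longest and 3 shortest genes. Genes, lists and tests were chosen with earlier results of these data known. Promoter and protein sequences were not analysed here.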

Additional observations from a re-analysis of the deposited data

How the results depend on the processing

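Each of the 52 fold changes was recomputed under 11 alternatives, and 44 genes kept their direction and their side of the threshold in all of them. With library totals only, which moved the median of all genes by -0.179, SOF1 turned to -0.0798 and RRP5 to -0.0031, and the median of the 52 genes was 0.487. SOF1 was also -0.0117 without lysate replicate 2, against 0.208 without lysate replicate 1. MPP10, ENP2 and FAF1 were not called with library totals only, and UTP15 and UTP11 were. Under that setting the 2-fold rule called 11 genes higher and 11 lower, against 15 and 8 in the main fit. Over nuclear genes outside the ribosomal protein families the median of the 52 was 0.568. With 1 library left out it ranged from 0.576 to 0.736, the median distance from the length trend from -0.139 (without lysate replicate 2, and -0.126 without eluate replicate 1) to -0.0207 (without eluate replicate 2), and rho with coding length from 0.571 to 0.596. The cause of these shifts was not tested. The shared replicate numbers are not stated to mark a common culture, and same-numbered libraries deviated with a correlation of -0.0334. With the replicate number as a block, 33 genes were higher and 15 lower, with a median of 0.668. The promoter motif search was not run. With 2 libraries in a fraction, the tests rest on a spread shared across genes, and a fraction left with 1 library is assumed to vary like the other.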
